A study of Mus musculus with 6 samples.

Results

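The genes described here are 10 members of the TGF-beta pathway: the ligand Tgfb1, the receptors Tgfbr1, Tgfbr2 and Tgfbr3, and Smad1, Smad2, Smad3, Smad4, Smad6 and Smad7. They were chosen by symbol, as every probe set annotated to one of these symbols alone, which gave 24 of 45101 probe sets. They stand for 10 of the 18193 genes tested. Expression was measured in LSK cells, the lineage-negative, cKit+ and Sca1+ fraction of mouse bone marrow that holds hematopoietic stem cells and early progenitors. Each sample was hybridised to 1 Affymetrix array. The 3 N1IC mice carried lox-stop-lox N1-IC, an allele that expresses the active intracellular part of Notch1 after Cre has removed a stop cassette, together with Mx1-cre+. The 3 WT mice carried Mx1-cre+ without that allele. Mx1-cre is switched on by interferon in blood cells and also in other tissues, so the allele can be switched on outside the sorted cells too. All mice received 3 injections of polyIC, an inducer of interferon, at 20 mcg per g of body weight from 21 days of age, and were analysed 2 weeks after the last, at 5 weeks. The treatment text of the labels names Ncstn flox/flox mice instead, and the groups follow the genotype labels. All 3 N1IC mice were female, while 1 WT mouse was female and 2 were male. WT replicate 1 stood apart from the other arrays on the second principal component (14.9% of the variance), at -41.95, against -7.94 to 5.64 on N1IC arrays and 23.12 and 15.83 on WT replicates 2 and 3. The titles of WT replicates 1 and 2 end in a letter b that the other titles lack, and its meaning is not stated.

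TGF-beta is secreted in a latent form and, once released, binds a type II receptor (Tgfbr2), which phosphorylates a type I receptor (Tgfbr1, also called ALK5). The type I receptor phosphorylates Smad2 and Smad3, which enter the nucleus with the shared partner Smad4, while Smad1 serves the BMP branch in the same way. Smad6 and Smad7 are inhibitory Smads that are themselves induced by the pathway, Smad6 mainly in the BMP branch. In bone marrow, TGF-beta signalling is known for holding stem cells in quiescence, and megakaryocytes are a known source of the ligand.

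In N1IC cells Tgfbr1 was 1.59-fold higher, Tgfb1 was 1.56-fold lower and Smad6 was 2.02-fold lower, and the other 7 genes did not pass the test. The test was limma, with p adjusted by the Benjamini-Hochberg method over the 18193 genes, and a gene passed below 0.05. The 3 genes called among 10 compare with 11.8% of all genes called, 3.47% higher and 8.31% lower. The 3 N1IC arrays lay wholly above or below the 3 WT arrays for 5 members, the 3 called genes with Smad3 and Smad7, against 32.8% of all genes. The median log2 fold change, N1IC mean minus WT mean, was -0.07 over the 10 members and -0.0083 over all genes. Without WT replicate 1 the log2 fold changes were 0.78 for Tgfbr1, -0.68 for Tgfb1 and -0.95 for Smad6, and the calls held (adjusted p of 0.0128, 0.0494 and 0.0373 by limma). Tested over all probe sets, only 1 member probe set was called in that fit. Leaving out any other array lost calls. Members called were 0, 1 and 2 without N1IC replicates 1, 2 and 3, and 1 and 0 without WT replicates 2 and 3. Each sample is labelled as coming from a mouse, and which mice were littermates is not stated. Because RNA from a cell mixture was measured, fewer cells of one type and less RNA per cell cannot be told apart.

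The promoters of the 3 called members are shown because they are the genes whose RNA differed between the groups. Each runs from 250 bases before to 50 bases after the transcript start, 5′ to 3′ on the gene's strand, from RefSeq on GRCm38.p6, a table that held 6 of the 10 members. Capitals mark matches to the letters searched on both strands: TGGGAA, the core of the site bound by the Notch partner RBPJ, CAGAC, a Smad box, GGCGCC, a GC-rich Smad element, and GTCTAGAC, the palindromic Smad element. The last was added after the sequences were seen. No match overlapped another.
Tgfbr1, chr4:47352972-47353271, plus strand: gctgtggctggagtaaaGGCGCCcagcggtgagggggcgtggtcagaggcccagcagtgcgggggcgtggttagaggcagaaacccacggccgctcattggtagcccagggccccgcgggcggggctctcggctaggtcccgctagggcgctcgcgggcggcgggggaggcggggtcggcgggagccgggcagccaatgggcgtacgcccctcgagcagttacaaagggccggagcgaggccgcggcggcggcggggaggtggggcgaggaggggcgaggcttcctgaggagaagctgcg
Tgfb1, chr7:25686752-25687051, plus strand: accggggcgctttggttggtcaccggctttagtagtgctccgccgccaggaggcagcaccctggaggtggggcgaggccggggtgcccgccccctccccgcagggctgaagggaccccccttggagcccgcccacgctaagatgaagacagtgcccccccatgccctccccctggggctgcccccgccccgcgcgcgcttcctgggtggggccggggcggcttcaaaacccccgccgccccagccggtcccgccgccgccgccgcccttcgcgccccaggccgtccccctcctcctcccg
Smad6, chr9:64022010-64022309, minus strand: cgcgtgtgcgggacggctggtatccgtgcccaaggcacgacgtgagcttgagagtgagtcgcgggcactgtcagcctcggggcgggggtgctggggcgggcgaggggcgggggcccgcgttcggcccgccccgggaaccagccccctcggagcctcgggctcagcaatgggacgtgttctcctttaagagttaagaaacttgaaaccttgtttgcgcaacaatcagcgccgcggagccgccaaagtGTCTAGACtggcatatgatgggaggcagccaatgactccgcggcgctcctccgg

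The Smad6 window held GTCTAGAC from 4 bases before the annotated start, a run of letters found in 0.213% of the 32851 promoter windows of the same table. Because this motif was added after the sequences were seen, that share does not measure how unusual the match is. The Tgfbr1 window held GGCGCC, present in 11.9% of windows, and the Tgfb1 window held none of the 4 motifs. None of these 3 windows held TGGGAA, present in 25.6% of windows, or CAGAC, present in 49.6%. A further Tgfbr1 window, 32994 bases downstream of the first, held CAGAC, the Tgfbr2 window held CAGAC, the Smad3 window held TGGGAA and the Smad1 window held no match. These matches describe letters and not bound sites.

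**Figure D1:**
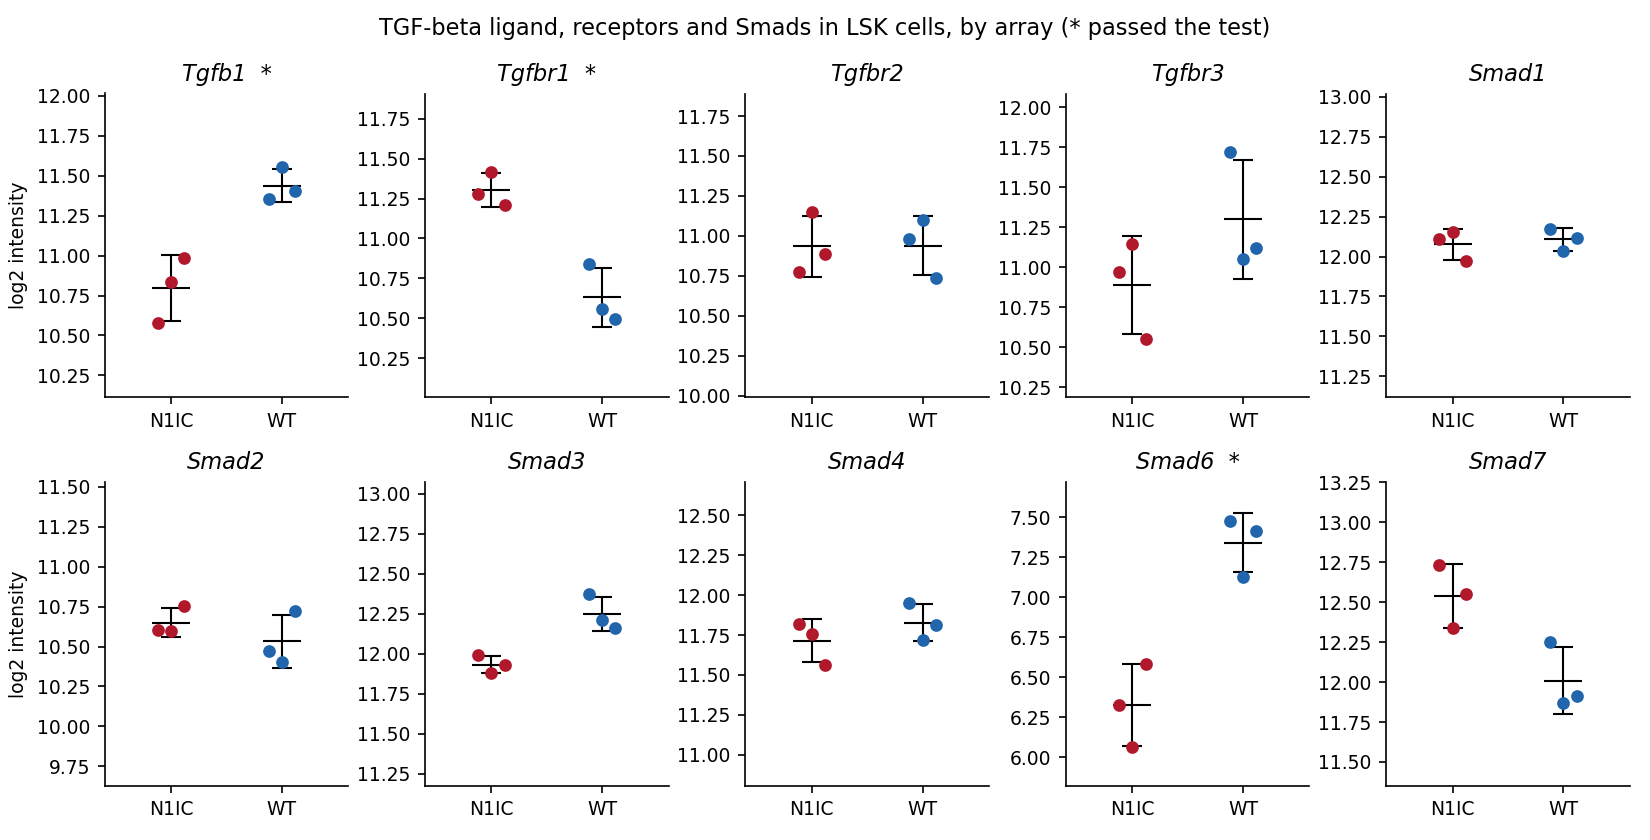
Log2 intensity (vertical axis, each panel spanning the same height) of the 10 genes on the 3 N1IC arrays (red, left) and the 3 WT arrays (blue, right), with mean and SD as black bars. The groups do not overlap for Tgfb1, Tgfbr1, Smad3, Smad6 and Smad7, and an asterisk marks the 3 genes that passed the test.

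The ligand Tgfb1 fell in N1IC cells. Its brighter probe set stood at 10.58, 10.84 and 10.98 log2 intensity on the N1IC arrays, against 11.36, 11.55 and 11.41 on the WT arrays. Each N1IC array lay below each WT array. The log2 fold change was -0.64 ± 0.13 (SE, n = 3; limma, adjusted p = 0.0273). A dimmer Tgfb1 probe set, 1445360_at, went the other way without passing, with 7.52, 7.28 and 8.18 on N1IC arrays, against 7.61, 6.99 and 7.08 on WT arrays, a log2 fold change of 0.43. With the mean of both probe sets the Tgfb1 log2 fold change was -0.10 (adjusted p = 0.753 by limma), so the call rests on the brighter probe set. It was also lost without N1IC replicate 1, N1IC replicate 2, WT replicate 2 or WT replicate 3, with adjusted p of 0.0594, 0.0739, 0.0824 and 0.0799 by limma. Megakaryocyte markers moved in the same direction as Tgfb1. Of 7 measured markers 6 fell, and the summed linear intensity of all 7 lay between 1026 and 1524 on N1IC arrays and between 6804 and 9970 on WT arrays. No detection call was used for these markers, and the part of megakaryocyte RNA in the Tgfb1 result was not tested.

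Tgfbr1, the type I receptor kinase, rose in N1IC cells. Its brightest probe set had log2 intensities of 11.28, 11.42 and 11.21 on N1IC arrays, against 10.84, 10.56 and 10.50 on WT arrays. The lowest N1IC array lay above the highest WT array, WT replicate 1. The log2 fold change was 0.67 ± 0.12 (SE, n = 3; limma, adjusted p = 0.0203). The other 2 Tgfbr1 probe sets pointed the same way without passing. The probe set 1420894_at had 7.90, 9.23 and 8.52 in N1IC against 6.39, 6.37 and 4.33 in WT, a log2 fold change of 2.85 ± 0.64 (SE, n = 3; limma over all probe sets, adjusted p = 0.0526). The third, 1420893_a_at, had a log2 fold change of 0.46, and its groups overlapped. Because of 1420894_at, the mean of the 3 probe sets gave a log2 fold change of 1.33 (adjusted p = 0.029 by limma). Leaving out 1 array ended the gene's call in every case but WT replicate 1, with adjusted p of 0.0669, 0.0641 and 0.0507 without N1IC replicates 1, 2 and 3, and 0.0652 and 0.0657 without WT replicates 2 and 3 (limma).

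Tgfbr2, the type II receptor that binds the ligand, had nearly equal means. Its brightest probe set had log2 intensities of 10.77, 11.15 and 10.89 on N1IC arrays, against 10.98, 11.10 and 10.74 on WT arrays. The groups overlapped fully, and the 95% interval of the log2 fold change ran from -0.35 to 0.34. The dimmer probe sets had log2 fold changes of -0.11 and 0.01. Tgfbr3, the co-receptor betaglycan that presents ligand to Tgfbr2, had log2 intensities of 10.97, 11.14 and 10.55 on N1IC arrays, against 11.72, 11.05 and 11.12 on WT arrays. Its highest value was that of WT replicate 1, and N1IC replicate 2 lay above the other 2 WT arrays. The Tgfbr3 log2 fold change was -0.41 with a 95% interval from -0.98 to 0.16 and an adjusted p of 0.336 by limma. Its dimmer probe set had a log2 fold change of -0.017 and groups that overlapped.

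**Figure D2:**
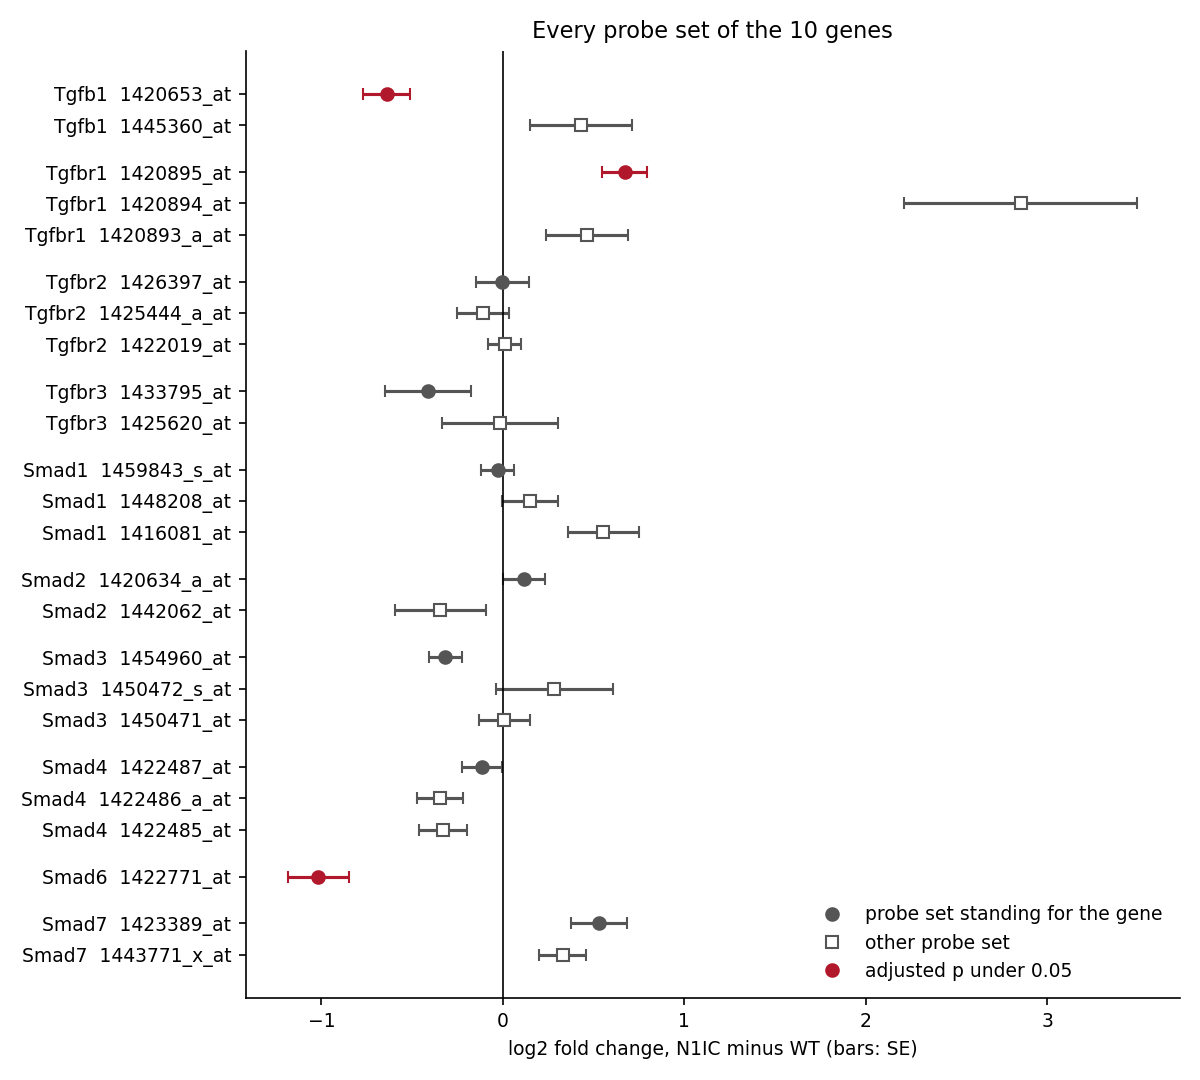
Log2 fold change of N1IC minus WT (horizontal axis, bars are SE) for each of the 24 probe sets of the 10 genes, brightest first within a gene. Circles stand for the gene, squares are its other probe sets, and red marks the 3 probe sets with an adjusted p under 0.05 over all probe sets.

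The 24 probe sets, tested one by one over 45037, gave 3 calls, against 7.92% of all probe sets called (3.16% higher and 4.76% lower), and they were the same probe sets that stood for Tgfb1, Tgfbr1 and Smad6. The groups did not overlap for 10 of the 24, against 29.5% of all probe sets. In all, 12 had a positive and 12 a negative log2 fold change. Probe sets of Tgfb1, Tgfbr2, Smad1, Smad2 and Smad3 differed in sign within the gene, whereas those of Tgfbr1, Tgfbr3, Smad4 and Smad7 did not. Some of these signs rest on values near 0, among them -0.0024 and 0.011 for Tgfbr2 and -0.017 for Tgfbr3. Probe set names ending in _s_at or _x_at mark probes that may bind several or related transcripts. This applies to 1459843_s_at, which stands for Smad1, to the Smad3 probe set 1450472_s_at and to the dimmer Smad7 probe set.

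Of the Smads that receptors phosphorylate, Smad3 was the one whose groups did not overlap. It had log2 intensities of 11.99, 11.88 and 11.93 on N1IC arrays, against 12.37, 12.21 and 12.16 on WT arrays. All N1IC arrays lay below all WT arrays by a narrow margin. The log2 fold change was -0.32 ± 0.09 (SE, n = 3; limma, adjusted p = 0.0728), which missed the threshold. The dimmer Smad3 probe sets had log2 fold changes of 0.01 and 0.28, and the mean of all 3 gave -0.0084. With an intensity trend in the variance model the adjusted p of Smad3 was 0.0271 by limma.

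Smad2, which like Smad3 carries the TGF-beta branch, had log2 intensities of 10.60, 10.59 and 10.75 on N1IC arrays, against 10.47, 10.41 and 10.72 on WT arrays. These groups overlapped, with WT replicate 3 near the top. The 95% interval of its log2 fold change ran from -0.15 to 0.39, and the dimmer Smad2 probe set had a log2 fold change of -0.34. Smad1, of the BMP branch, had log2 intensities of 12.11, 12.16 and 11.97 on N1IC arrays, against 12.17, 12.03 and 12.12 on WT arrays, with a 95% interval from -0.24 to 0.18. The second brightest Smad1 probe set, 1448208_at, pointed up, with a log2 fold change of 0.15 and groups that overlapped. A dim Smad1 probe set, 1416081_at, had groups that did not overlap and a log2 fold change of 0.55, but did not pass (adjusted p = 0.16 over all probe sets by limma).

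Smad4, the partner shared by both branches, had log2 intensities of 11.82, 11.76 and 11.56 on N1IC arrays, against 11.95, 11.72 and 11.82 on WT arrays, for its brightest probe set. The groups overlapped, and the 95% interval of the log2 fold change ran from -0.37 to 0.14. The other 2 Smad4 probe sets had groups that did not overlap, with N1IC lower by log2 fold changes of -0.35 and -0.33, and adjusted p of 0.176 and 0.202 over all probe sets by limma.

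The inhibitory Smads pointed in opposite directions, and only Smad6 passed. Smad6 stood at log2 intensities of 6.33, 6.07 and 6.58 in N1IC, against 7.48, 7.13 and 7.42 in WT. All N1IC arrays were lower, and the gap between the groups was wider than the spread within either. The log2 fold change was -1.02 ± 0.16 (SE, n = 3; limma, adjusted p = 0.0144). Smad6 has 1 probe set, and its signal is near the array medians, which lay between 6.48 and 6.53, so its fold change may be compressed and no detection call was used. Its call was lost without N1IC replicate 1 or WT replicate 3, at adjusted p of 0.0552 and 0.0565 by limma. Smad7 had log2 intensities of 12.74, 12.34 and 12.55 on N1IC arrays, against 12.25, 11.87 and 11.91 on WT arrays. Its groups did not overlap, but N1IC replicate 2 and WT replicate 1 were close. The log2 fold change was 0.53 ± 0.15 (SE, n = 3; limma, adjusted p = 0.0794), and the second probe set had a log2 fold change of 0.33. Without WT replicate 1 the adjusted p of Smad7 was 0.0479 by limma, and 0.0425 with an intensity trend. Whether the changes of Smad6 and Smad7 differ from each other was not tested.

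Endothelial cells are known to express Smad6, and markers of this type were set beside it. Of 6 such markers 3 fell, Tek, Robo4 and Emcn, which stem cells share. The summed intensity of all 6 lay between 1042 and 1252 in N1IC and between 2635 and 3680 in WT. Cdh5 and Kdr, which define endothelium more closely, did not pass, at log2 fold changes of -0.91 and 0.17. Pecam1 is an adhesion molecule of endothelium and also of blood cells. It had log2 intensities of 9.48, 9.24 and 9.62 on N1IC arrays, against 8.78, 9.02 and 9.11 on WT arrays. All its N1IC arrays were higher, but its log2 fold change of 0.48 did not pass (adjusted p = 0.0851 by limma). Cdh5 had log2 intensities of 4.20, 4.29 and 4.36 on N1IC arrays, against 4.36, 4.75 and 6.46 on WT arrays. The part of endothelial RNA in the Smad6 result was not tested.

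Sex and group were partly confounded, since the only WT female was WT replicate 2. With sex as a covariate, which sets the N1IC arrays against WT replicate 2 alone, none of the 10 members passed limma, while 4 had an unadjusted p under 0.05. The log2 fold changes in that fit were 0.74 for Tgfbr1, -0.75 for Tgfb1 and -0.80 for Smad6, with adjusted p of 0.122, 0.122 and 0.15 by limma. In that fit 449 genes passed, against 2144 without the covariate.

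**Figure D3:**
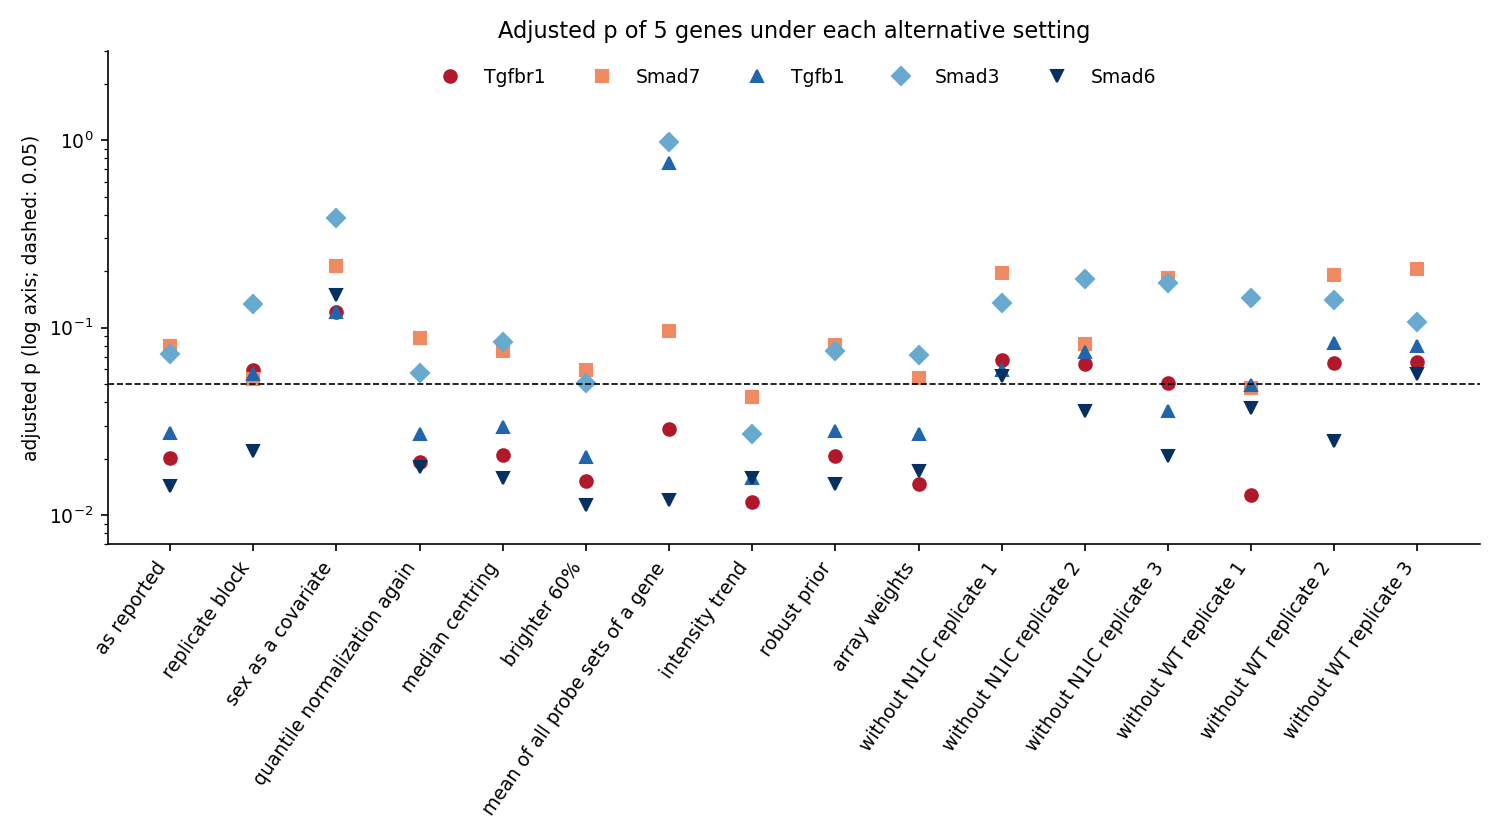
Adjusted p by limma (vertical log axis, dashed line at 0.05) of the 5 genes whose groups did not overlap, under the reported fit and 15 alternative settings on the horizontal axis. Tgfbr1, Tgfb1 and Smad6 lie under the line in the reported fit at 0.0203, 0.0273 and 0.0144, and all 5 lie above it with sex as a covariate.

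The wider pathway was read from 6 lists of textbook genes, of which 84 of 89 were measured. In N1IC 4 rose and 10 fell, or 16.7% called, against 11.8% of all genes, of which 3.47% rose and 8.31% fell. By list the share called was 16.7% of other ligands, 16.7% of other receptors, 0% of other Smads, 17.6% of latency and activation genes, 9.09% of Smad partners and 26.3% of response genes. The median log2 fold change of the 84 was -0.04. Counts fell to 6 without N1IC replicate 1, 8 without N1IC replicate 2, 7 without N1IC replicate 3, 8 without WT replicate 2 and 7 without WT replicate 3, and the count was 14 when WT replicate 1 was left out. When sex was a covariate, 1 gene passed. Inha, Eng, Fstl1, Tgif1 and Ldlrad4 passed in each of the 6 fits that left out an array, and the other 9 named below lost their call in at least 1 of them.

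Among 12 other ligands 2 fell, both inhibin and activin subunits. Inha, the alpha subunit of inhibin, stood at log2 intensities of 4.54, 5.00 and 4.73 in N1IC against 5.95, 5.82 and 5.97 in WT (adjusted p = 0.00505 by limma). Inhba, the activin A subunit, stood at log2 intensities of 4.26, 4.09 and 4.39 in N1IC against 5.17, 6.07 and 6.18 in WT (adjusted p = 0.0206 by limma). Both signals lay below the array medians on all 6 arrays, so their fold changes may be compressed. With the mean of its 2 probe sets the Inhba log2 fold change was -0.82, against -1.56 for the brighter one. A further activin subunit, Inhbb, named after its values were seen, had log2 intensities between 5.46 and 5.62 on N1IC arrays, against 5.17 to 5.40 on WT arrays. Its N1IC arrays were all higher, but its log2 fold change of 0.20 did not pass (adjusted p = 0.253 by limma). The ligands Tgfb2 and Tgfb3, named after their values were seen, had log2 fold changes of -0.14 and -0.08 and did not pass.

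Among 12 other receptors 2 fell, and 11 had a negative log2 fold change, as had 9413 of all 18193 genes. Eng, endoglin, a co-receptor of TGF-beta and BMP ligands that is also a surface marker of stem cells, stood at log2 intensities of 9.96, 9.64 and 9.94 in N1IC against 10.77, 10.74 and 11.02 in WT. This was 2.00-fold lower, with an adjusted p of 0.00729 by limma, and both of its probe sets passed on their own. Bmpr2, the type II receptor for BMPs, stood at log2 intensities of 10.42, 10.53 and 10.29 in N1IC against 11.31, 10.93 and 10.89 in WT, with an adjusted p of 0.0388 by limma. The mean of its 3 probe sets gave -0.47 and lost the call (adjusted p = 0.0907 by limma). Smad5 and Smad9, the other Smads of the BMP branch, had log2 fold changes of 0.67 and 0.21 and did not pass.

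Among 17 measured genes of latency, activation and extracellular inhibition, 1 rose and 2 fell. Fstl1, a secreted follistatin-like protein, had the largest fall of the 84 genes, between 5.99 and 6.37 in N1IC against 8.44 to 9.34 in WT. It was 7.44-fold lower with an adjusted p of 0.00271 by limma, and both of its probe sets passed on their own. Its N1IC signal lay below the array medians, so this fold may be compressed. Thbs1, thrombospondin, an activator of latent TGF-beta carried by platelets, had a log2 fold change of -1.24 (adjusted p = 0.046 by limma). The N1IC signal of Thbs1 also lay below the array medians. Neither of its probe sets was called on its own, and their mean gave -0.65 (adjusted p = 0.0578 by limma). Itgb6, the integrin beta subunit that activates latent TGF-beta, had a log2 fold change of 0.79 from a dim signal (adjusted p = 0.0205 by limma), and its 2 probe sets differed in sign, with a mean of 0.32 that did not pass (adjusted p = 0.0701 by limma).

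Among 22 Smad partners, corepressors and turnover factors, 2 rose and none fell, a share below that of all genes. Tgif1, a homeodomain corepressor of Smad2 and Smad3, stood at log2 intensities of 11.24, 10.98 and 11.39 in N1IC against 10.25, 10.35 and 10.24 in WT. It was 1.89-fold higher, with an adjusted p of 0.00762 by limma. Pmepa1, a membrane protein that sequesters Smads and is induced by TGF-beta, stood at log2 intensities of 9.30, 8.96 and 8.58 in N1IC against 7.57, 8.27 and 7.66 in WT (adjusted p = 0.0434 by limma). Of its 3 probe sets 2 pointed up and none was called on its own, and their mean gave a log2 fold change of 0.51 that did not pass (adjusted p = 0.117 by limma).

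Among 19 measured TGF-beta and BMP response genes, 1 rose and 4 fell. Ldlrad4, an inhibitor of TGF-beta signalling, stood at log2 intensities of 11.19, 11.08 and 11.08 in N1IC against 8.63, 9.50 and 9.41 in WT. It was 3.83-fold higher with an adjusted p of 0.0061 by limma, and all 4 of its probe sets pointed up, 1 of them called. The mean of the 4 gave a log2 fold change of 1.11 and lost the call (adjusted p = 0.063 by limma). Tgfbi, a TGF-beta induced matrix protein that is also abundant in monocytes, fell to 8.52, 8.51 and 9.66 in N1IC, against 10.54, 10.97 and 10.89 in WT, and all 4 of its probe sets were called (adjusted p = 0.0198 by limma for the brightest). Id1 and Id3, inhibitors of E proteins and targets of the BMP branch, had log2 fold changes of -1.07 and -0.84 (adjusted p of 0.0295 and 0.0304 by limma). Cdkn1c, the cell cycle inhibitor p57, had a log2 fold change of -0.99 (adjusted p = 0.0167 by limma). Its N1IC log2 intensities of 5.33, 5.66 and 5.47 lay below the array medians, so this change may be compressed. Of 11 macrophage and neutrophil markers 2 rose, C1qb and C1qc, and 3 fell, Cd14, Mpo and Elane. Csf1r and Adgre1 did not pass, at log2 fold changes of -0.36 and 0.02. The summed linear intensity of all 11 lay between 15285 and 26512 in N1IC and between 30230 and 66350 in WT, lowest among WT arrays on WT replicate 1. Bright neutrophil markers such as S100a8 and Camp weigh most in this sum, so it does not measure monocyte RNA. The part of these cells in the Tgfbi result was not tested.

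**Figure D4:**
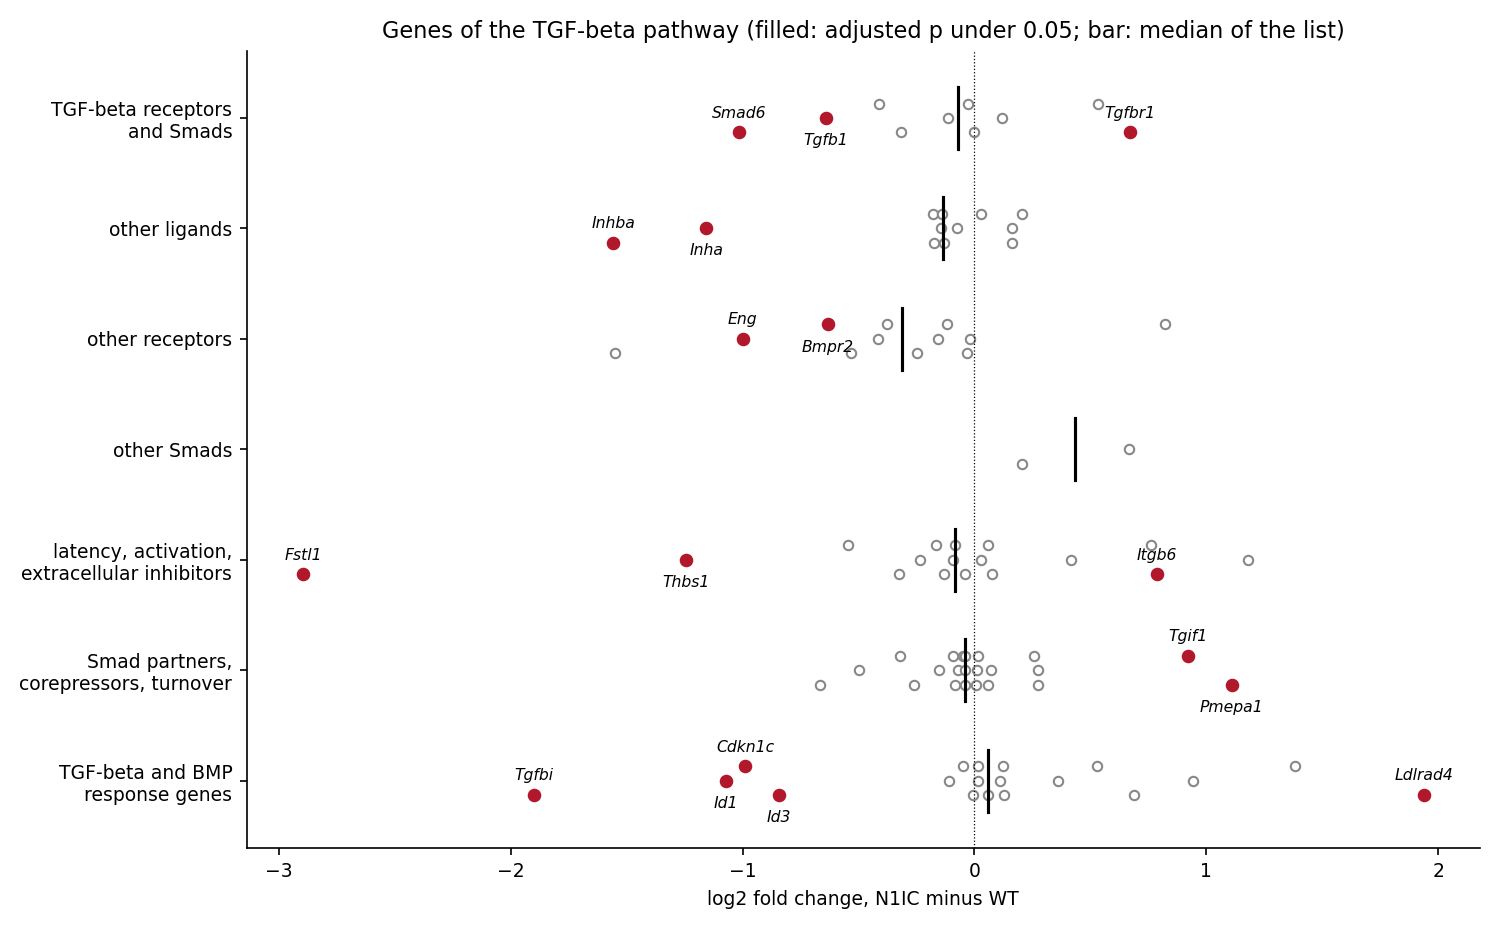
Log2 fold change of N1IC minus WT (horizontal axis) for the 10 members and the 84 genes of 6 wider lists (rows). Each point is a gene, filled red where the adjusted p was under 0.05, the black bar is the median of the list, and points are spread vertically for legibility. The called genes range from Fstl1 at -2.90 to Ldlrad4 at 1.94.

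The genes whose profile over the 6 arrays was closest to that of Smad6, by the mean absolute difference of centred log2 values among 2051 called genes, were Reck, Sesn1, Ldhb and Ttc39c, at differences between 0.0283 and 0.0705. For Tgfbr1 they were Gpbp1l1, Tnfaip8l1, Mcoln2 and Omp, at differences between 0.0535 and 0.067. Any called gene of like fold change scores well on this measure, since the groups make up most of each profile.

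Sorted cells were checked against their markers. Kit had log2 intensities of 11.57, 11.51 and 11.45 on N1IC arrays, against 11.94, 11.58 and 11.75 on WT arrays and did not pass, and the gene of Sca1 was not analysed here. Of 6 measured LSK markers 4 fell, among them Flt3 and Slamf1, while 8 of 10 T-lineage markers rose. The coreceptors Cd4 and Cd8a went the other way without passing, at log2 fold changes of -0.62 and -1.18. The summed intensity of all 10 T-lineage markers lay between 30292 and 36616 in N1IC and between 2484 and 4922 in WT. Of 6 B-lineage markers 5 fell, and the summed intensity of all 6 lay between 1379 and 1963 in N1IC and between 13133 and 23274 in WT. Markers of several cell types thus moved with the groups alongside the results above, and the part of cell makeup in them was not tested.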

How the data were processed

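Total RNA (5 ng) of each sample was amplified and biotin-labelled with Nugen Ovation kits, per the labels' protocols. The authors deposited probe set intensity values made with RMA, per the submitters' processing notes. The version of RMA is not given in the sources used here. The linear scale was settled from the range of values, and log2 was taken before any test. Symbols came from the platform's annotation (34945 of 45101 probe sets had 1 symbol), updated through RefSeq gene IDs, which held 34741 of them.

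Each gene was represented by its probe set with the highest mean over the 6 arrays. The comparison of N1IC and WT used limma (version 3.58.1, with R 4.3.3, lmFit, eBayes, two-sided, no covariate, 4 residual and 2.05 prior degrees of freedom), with Benjamini-Hochberg adjustment over 18193 genes, or over 45037 probe sets for single probe sets. The fit was tested on simulated data. Files were read with the package data.table, version 1.17.8, and matplotlib 3.10.9 in Python 3.11.15 drew the plots.

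Members, lists and tests were chosen with earlier results of these data known. All members were named, with up to 6 called genes per wider list (otherwise the 2 brightest), and the 4 genes most alike the 2 members with the smallest p. Other names were chosen after seeing the values, as stated there. Alternatives were a replicate block, sex as a covariate, other scalings, a filter on dim genes, the mean of probe sets, other variance priors, array weights, other thresholds and leaving out each array. Scanner files were not used here, so background correction was not varied, and the labels give no scan date. The small number of arrays limits precision.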

Additional observations from a re-analysis of the deposited data

How the results depend on the processing

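With sex as a covariate 0 members, 0 member probe sets, 1 wider pathway gene and 449 of all genes passed limma, and 4 members had an unadjusted p under 0.05. At an adjusted p of 0.01 these counts were 0, 0, 5 and 745, with 5 members under an unadjusted 0.05. At 0.1, 5 members and 3249 genes passed. With an intensity trend 5 members and 5 member probe sets passed. Leaving out 1 array gave 0 to 4 members, 0 to 1 member probe sets, 6 to 14 wider genes and 1167 to 1929 genes. No member passed without N1IC replicate 1 or without WT replicate 3, where 5 had an unadjusted p under 0.05 by limma.

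The replicate numbers in the titles did not pair the arrays: deviations of same-numbered arrays correlated at -0.09, -0.07 and 0.07 across genes, and no array correlated best with its own number in both directions. With the replicate block 1 member (Smad6), 1 member probe set and 1293 genes passed. Adjusted p under the block was 0.0592 for Tgfbr1 and 0.0566 for Tgfb1.

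Values near 0 changed sign. Smad1 was 0.046 with sex as a covariate, 0.23 with the mean of its probe sets, and -0.068 to 0.025 with 1 array left out. Smad2 was -0.11 with the mean of its probe sets. Tgfbr2 was 0.0076 after median centring and -0.11 to 0.078 with 1 array left out. The cause of these shifts was not tested. Repeated quantile normalization, median centring, a robust prior, array weights and the brighter 60% of genes left the 3 called members called.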

Other observations

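Several regulators chosen after their values were seen had groups that did not overlap without passing limma. The groups did not overlap for 28 of the 84 wider pathway genes, a share like the 32.8% of all genes. Bambi, a decoy receptor that blocks TGF-beta and BMP signalling, stood at 9.65, 10.08 and 10.15 log2 intensity in N1IC and at 9.18, 8.76 and 9.47 in WT (adjusted p = 0.0682 by limma). Fstl3, a secreted inhibitor of activin, had log2 intensities of 10.82, 11.17 and 11.02 on N1IC arrays, against 9.97, 10.64 and 10.11 on WT arrays (adjusted p = 0.0606 by limma). Ltbp3, which binds latent TGF-beta, had log2 intensities of 10.96, 10.33 and 10.61 on N1IC arrays, against 11.05, 11.06 and 11.43 on WT arrays (adjusted p = 0.134 by limma). All 4 of its probe sets pointed down, and 1 of them was called on its own over all probe sets.

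Beyond the second principal component, WT replicate 1 lay apart from the other WT arrays for several pathway genes that did not pass, chosen after their values were seen. Acvrl1, the type I receptor ALK1, had log2 intensities of 5.24, 4.98 and 6.19 on N1IC arrays, against 5.24, 7.84 and 7.97 on WT arrays. Itgae, an integrin of T cells induced by TGF-beta, had log2 intensities of 8.35, 8.87 and 8.10 on N1IC arrays, against 6.22, 8.67 and 8.84 on WT arrays. Id2, an inhibitor of E proteins, had log2 intensities of 11.31, 11.24 and 11.04 on N1IC arrays, against 10.32, 11.52 and 11.70 on WT arrays. Gadd45b, a stress response gene, had log2 intensities of 10.81, 10.37 and 11.40 on N1IC arrays, against 9.31, 10.52 and 10.69 on WT arrays.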
